A study of Homo sapiens with 4 samples.

Results

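The genes described here are 10 brakes on antigen receptor and cytokine signalling in T cells: the ubiquitin ligases CBL and CBLB, the phosphatase-like proteins UBASH3A and UBASH3B, the diacylglycerol kinases DGKA and DGKZ, the tyrosine phosphatases PTPN2, PTPN6 and PTPN22, and the adaptor SLA. They were picked by symbol out of 60609 gene identifiers in the deposited table, with their differences between the study's 2 conditions already known, so those differences are given as descriptions: no p is given for them, and which of them a fit over all genes called is reported as a description too. CCRF-CEM is an established human line of T cell acute lymphoblastic leukaemia, and every library came from a derivative with an HA-tagged AMPK alpha 2 subunit (CCRF-CEM/HA-AMPKa2), so both groups carry the tagged subunit. The No glucose group (2 libraries, ONG_9 and ONG_10) spent 24 hours in medium lacking glucose, and the Ctrl group (2 libraries, CTRL_7 and CTRL_8) spent the same 24 hours in control medium without treatment. The comparison asks how transcript levels in these leukaemia cells differ when glucose is withheld. Total RNA was sequenced, and the labels do not say whether the replicates were separate cultures or whether the line is a single clone.

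When a T cell receptor is engaged, the kinases LCK and ZAP70 phosphorylate the receptor's tails and the scaffold LAT, and phospholipase C gamma then makes diacylglycerol, the lipid that recruits RASGRP1 and protein kinase C theta. Each step has its own brake. CBL proteins attach ubiquitin to phosphorylated receptors and kinases, UBASH3 and PTPN proteins remove or counter tyrosine phosphorylation, DGK enzymes turn diacylglycerol into phosphatidic acid, and SLA helps CBL to draw the receptor complex from the cell surface.

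Reads assigned to genes summed to 19035535 (ONG_9) and 20081266 (ONG_10) in No glucose, against 96698709 (CTRL_7) and 24513840 (CTRL_8) in Ctrl. The 10 genes had between 458 reads (CBLB in CTRL_8) and 20603 reads (PTPN2 in CTRL_7). All 13 T lineage markers examined reached at least 50 normalized counts in some library, with sums of 68284 and 69178 in No glucose and 67490.4 and 66293 in Ctrl. Single T lineage markers differed in both directions beneath that sum. TRAC, a T cell receptor constant region gene, had 878 and 826 normalized counts in No glucose and 82.1 and 91.0 in Ctrl, and TRBC1 had 379 and 401 in No glucose and 219.8 and 217 in Ctrl. CD7 had 269.9 and 523 in No glucose and 756 and 666 in Ctrl, and CD3G had 7564 and 7181 in No glucose and 10043 and 10132 in Ctrl. Summed B cell markers stood at 541 and 557 in No glucose and 935 and 915 in Ctrl, almost all of it CD79A and CD79B, while CD22 and MS4A1 had at most 0.343 normalized counts. Summed myeloid markers ran from 33.4 to 54.7 and erythroid markers from 3.03 to 7.02 over the 4 libraries, and of the adherent cell markers EPCAM alone passed 50 (423 and 383 in No glucose, 482 and 535 in Ctrl). The part of these markers in the results below was not tested. PRKAA2, the gene of the tagged subunit, had 670.2 and 662 normalized counts in No glucose and 409 in each Ctrl library. Reads of the tagged copy and of the cell's own gene could not be told apart.

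A normalized count here is the read count of a gene divided by a size factor of its library, as deposited. Differences are log2 fold changes of No glucose over Ctrl, estimated with limma on log2(normalized count + 1) over 27486 genes, with the SE of the estimate. A gene is said to be called when its limma p, adjusted by Benjamini-Hochberg over all genes tested, was under 0.05. Called genes made up 35.1% of all genes tested (14.4% higher, 20.7% lower) and 66.0% of the 10656 protein-coding genes with a mean of at least 50 normalized counts (18.9% higher, 47.2% lower). All 10 dampers were in the fit and 8 were called, 6 higher (CBL, CBLB, DGKA, PTPN6, PTPN22 and SLA) and 2 lower (DGKZ and PTPN2). Their median log2 fold change was 0.28, against 0.04 over all genes tested and -0.20 over those coding genes. In all 10 the No glucose libraries lay wholly on one side of the Ctrl libraries, 8 higher and 2 lower, as did those of 66.8% of all genes tested (35.1% higher, 31.7% lower) and 85.3% of those coding genes (27.4% higher, 57.9% lower). Since the choice of genes used this contrast, these counts describe the set and show nothing about it. The authors' deposited table also had 6 of the 10 higher and 2 lower at an adjusted p under 0.05. The count of called dampers was 4 without CTRL_7, when DGKZ, PTPN2, PTPN6 and PTPN22 dropped out, and 5 without CTRL_8, when DGKZ, PTPN2 and PTPN22 did. When libraries were instead scaled to equal totals, which moved the median of all genes tested to 0.23, 8 dampers were called higher and none lower.

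**Figure D1:**
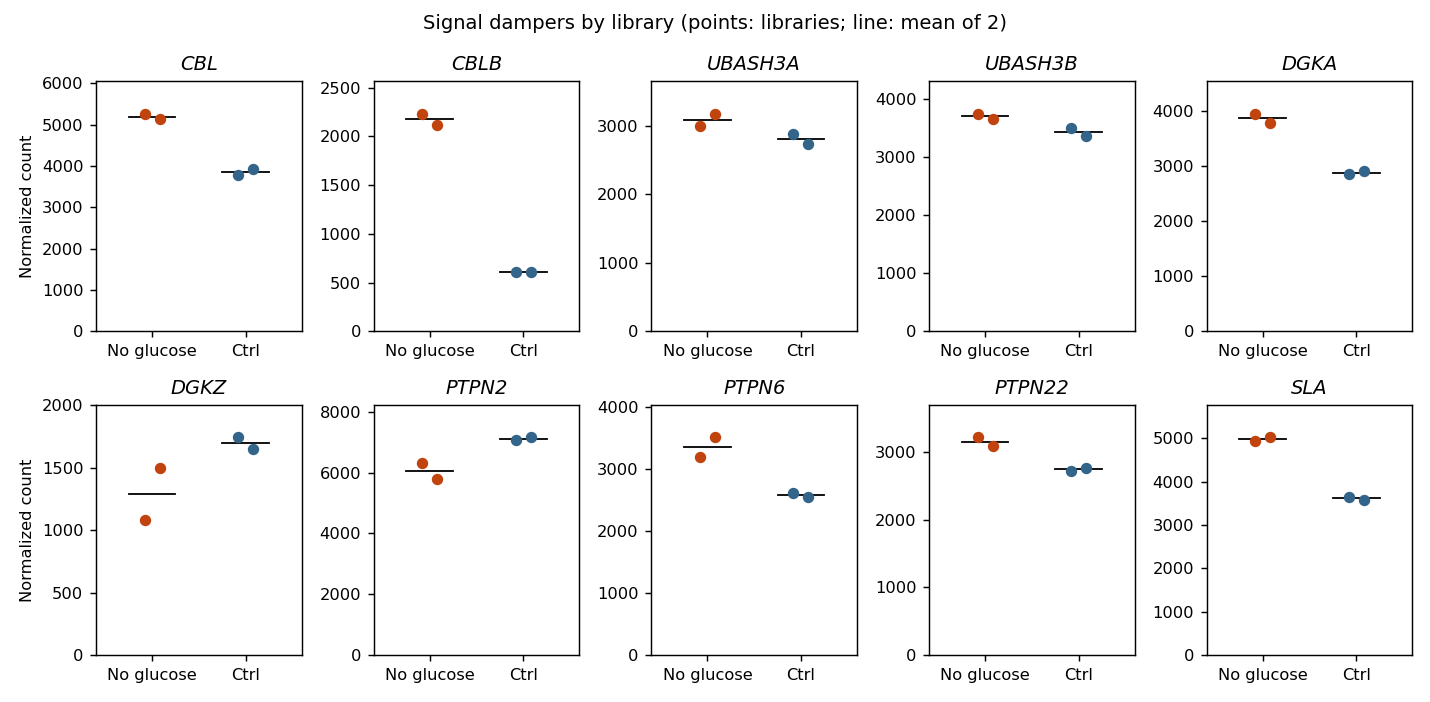
Normalized counts (y axis, from 0) of the 10 signal dampers in each No glucose library (left in each panel) and each Ctrl library (right), with a line at the mean of 2 libraries. CBLB shows the widest gap between groups, 2175 against 611 on average, and DGKZ, relative to its level, the widest gap between the 2 No glucose libraries, 1079.5 and 1501.

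The CBL ligases were both higher without glucose, CBLB by far the more. CBLB, which sets the threshold for T cell activation by restraining signalling when CD28 costimulation is missing (ENSG00000114423, hg38 chr3:105655461-105869552, minus strand), had 2233 and 2117 normalized counts in No glucose, against 609.7 and 613 in Ctrl. The groups stood far apart, and the 4 log2 ratios between single libraries ran from 1.79 to 1.87. The means were 2175 ± 82.1 in No glucose and 611 ± 2.07 in Ctrl (SD, n = 2), a fold of 3.56 and a log2 fold change of 1.83 ± 0.07 (SE). Of the 10656 coding genes with a mean of at least 50 normalized counts, 47 had a higher log2 fold change than CBLB. CBL, the founding member of the family, which marks activated receptors and ZAP70 for degradation (ENSG00000110395, chr11:119206276-119313926, plus strand), had 5266 and 5127 normalized counts in No glucose and 3780.5 and 3919 in Ctrl. Its libraries did not overlap between groups, and its log2 fold change was 0.43 ± 0.05. The third gene of the family, CBLC, known mainly from epithelia, had 0 reads in every library, which allows up to 3 reads in each.

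Levels were also expressed relative to the annotated exon length of each gene and to the sum over all genes (TPM). That length counts all annotated exons of a gene, and which of its transcripts these cells made was not measured. Levels and shares compared between genes in TPM therefore depend on it. In TPM CBLB made up 28.9% and 28.3% of the family's level in No glucose and 13.4% and 13.0% in Ctrl. The family's summed level was 82.9 and 79.4 in No glucose and 41.0 and 43.1 in Ctrl. CBL thus remained the larger part in every library, while the part taken by CBLB was larger in both No glucose libraries than in either Ctrl library. With 2 libraries against 2, an exact two-sided permutation test cannot give a p below 0.333, so no test was made of these shares. TPM rests on the total of each library and places No glucose higher relative to Ctrl than normalized counts do. CBL averaged 58.0 in No glucose and 36.5 in Ctrl in TPM, but 5196 and 3850 in normalized counts. The family's summed levels carry that shift, while shares within a library do not.

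RefSeq's promoter table (GRCh38.p14) had entries for 7 of the 10 genes. Shown here are windows of CBLB, which had the largest difference, and of DGKA and PTPN22, chosen from the other dampers called higher. Entries of PTPN6, also called higher, and of DGKZ, PTPN2 and UBASH3B are not shown. Each window is the 250 bases before the RefSeq start near which the largest number of the gene's GENCODE 29 coding transcripts begin. These were 5 of 9 for CBLB, 6 of 16 for DGKA and 6 of 6 for PTPN22, within 50 bases. The CBLB window is chr3:105869013-105869262 on the minus strand, the DGKA window chr12:55931813-55932062 on the plus strand and the PTPN22 window chr1:113871713-113871962 on the minus strand. Capitals mark matches, on either strand, to 6 motifs: the GC box GGGCGG, the CCAAT box CCAAT, the cyclic AMP element core TGACG, the AP-1 site TGANTCA, the NR4A site AAAGGTCA and the NFAT core GGAAAA.
CBLB: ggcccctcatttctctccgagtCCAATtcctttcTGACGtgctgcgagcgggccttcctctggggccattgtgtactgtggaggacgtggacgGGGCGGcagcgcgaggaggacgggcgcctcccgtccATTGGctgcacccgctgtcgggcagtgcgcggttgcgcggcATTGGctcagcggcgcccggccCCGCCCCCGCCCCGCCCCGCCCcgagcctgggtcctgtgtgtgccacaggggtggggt
DGKA: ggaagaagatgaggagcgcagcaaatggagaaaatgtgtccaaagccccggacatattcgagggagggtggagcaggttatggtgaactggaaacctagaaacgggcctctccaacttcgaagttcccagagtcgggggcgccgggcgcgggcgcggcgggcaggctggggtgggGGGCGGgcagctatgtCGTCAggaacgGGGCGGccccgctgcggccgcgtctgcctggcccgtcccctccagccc
PTPN22: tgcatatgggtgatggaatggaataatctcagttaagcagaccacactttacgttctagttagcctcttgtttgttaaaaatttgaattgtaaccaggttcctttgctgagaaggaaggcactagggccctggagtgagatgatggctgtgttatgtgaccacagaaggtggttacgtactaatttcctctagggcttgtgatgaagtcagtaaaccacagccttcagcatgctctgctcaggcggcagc

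The CBLB window, 72.0% G and C, held 5 GC boxes, of which 4 form the run of capitals near its end and partly overlap, 3 CCAAT boxes and 1 cyclic AMP element core. The DGKA window (66.8% G and C) held 2 GC boxes and 1 cyclic AMP element core, and the PTPN22 window (45.6%) held no match. Of 35116 windows of the same length in the table, 42.6% held a GC box, 32.0% a CCAAT box, 21.2% a cyclic AMP element core, 6.57% an AP-1 site, 1.05% an NR4A site and 21.2% an NFAT core. The 3 windows thus differed in which of these letters they hold. A match describes the letters only, and which start these cells used was not measured.

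The UBASH3 pair differed little between groups in normalized counts. UBASH3A, a lymphoid protein of weak phosphatase activity that binds CBL (ENSG00000160185, chr21:42403447-42447681, plus strand), had 3004 and 3182 normalized counts in No glucose and 2890.5 and 2737 in Ctrl, a log2 fold change of 0.14 ± 0.06. UBASH3B, the more active phosphatase, which acts on ZAP70 and SYK (ENSG00000154127, chr11:122655675-122814473, plus strand), had 3749.6 and 3665 in No glucose and 3505 and 3363 in Ctrl, a log2 fold change of 0.11 ± 0.06. Neither gene was called, although in both the lower No glucose library was above the higher Ctrl library. Of coding genes with at least 50 normalized counts, whose median was -0.20, 74.7% lay below UBASH3A and 73.0% below UBASH3B. UBASH3A was called with ONG_9 left out and with scaling to library totals, and UBASH3B with scaling to library totals (0.35 and 0.32). Per exon length UBASH3A held 64.8% and 66.7% of the pair's level in No glucose and 65.5% and 65.2% in Ctrl, so the ranges of the share in the 2 groups overlapped. The pair's summed level in TPM was 155.6 and 159.0 in No glucose and 124.3 and 120.5 in Ctrl, which do not overlap.

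**Figure D2:**
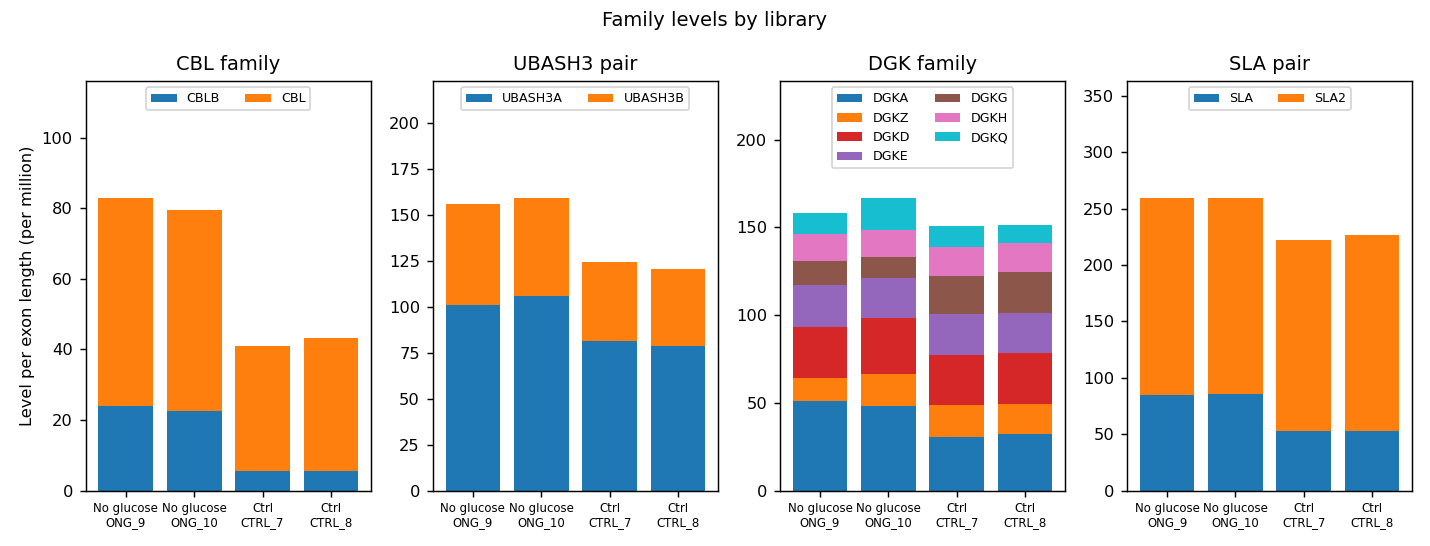
Level per exon length in TPM (y axis) of each gene, stacked by family, in the 2 No glucose libraries (left) and the 2 Ctrl libraries (right) of each panel. The summed CBL family level is 82.9 and 79.4 in No glucose and 41.0 and 43.1 in Ctrl, and the UBASH3 pair keeps the split between its 2 genes at 64.8% to 66.7% UBASH3A. TPM places No glucose higher relative to Ctrl than normalized counts do.

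In normalized counts, the diacylglycerol kinases that are prominent in T cells went in opposite directions. DGKA, a calcium-responsive isoform that follows diacylglycerol to the membrane (ENSG00000065357, chr12:55927319-55954027, plus strand), had 3956 and 3781 normalized counts in No glucose, against 2853 and 2909 in Ctrl. Its means were 3869 ± 123 in No glucose and 2881 ± 39.8 in Ctrl (SD, n = 2), a log2 fold change of 0.42 ± 0.06. DGKZ, the isoform that limits RAS activation downstream of the receptor (ENSG00000149091, chr11:46332905-46380554, plus strand), had 1079.5 and 1501 in No glucose, against 1744 and 1653 in Ctrl. Both No glucose libraries were lower than both Ctrl libraries, but ONG_10 was 1.39 times ONG_9. In TPM the groups overlapped, at 13.2 and 18.1 in No glucose and 17.8 and 17.2 in Ctrl. Coding genes with at least 50 normalized counts had a median log2 fold change of -0.20, and 34.3% of them lay below DGKZ. The log2 fold change of DGKZ, -0.42 ± 0.12, had the widest error of the 10 genes. It was -0.18 without ONG_9 and -0.65 without ONG_10, and DGKZ was not called without CTRL_7, without CTRL_8, with DESeq2 on the recovered reads or with scaling to library totals (-0.20).

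The No glucose libraries also differed from each other by base composition over all genes. Among coding genes with at least 50 normalized counts, the median log2 ratio of ONG_10 over ONG_9 was -0.10 in the lowest of 5 equal bins by transcript GC content and 0.27 in the highest bin. The same medians of CTRL_8 over CTRL_7 were -0.00 and -0.09. DGKZ, with 61.1% GC in its longest transcript, had a log2 ratio of ONG_10 over ONG_9 of 0.48, higher than in 77.9% of the genes in the highest bin. The part of GC content in the spread of DGKZ was not tested. PTPN6, at 59.5% GC, had 0.14, and the other 8 dampers, at 36.3% to 54.8% GC, lay between -0.12 and 0.08. The part of GC content in the difference between No glucose and Ctrl was not tested. The median log2 fold change of No glucose over Ctrl was -0.35 in the bin with the highest GC and -0.12 in the bin with the lowest.

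**Figure D3:**
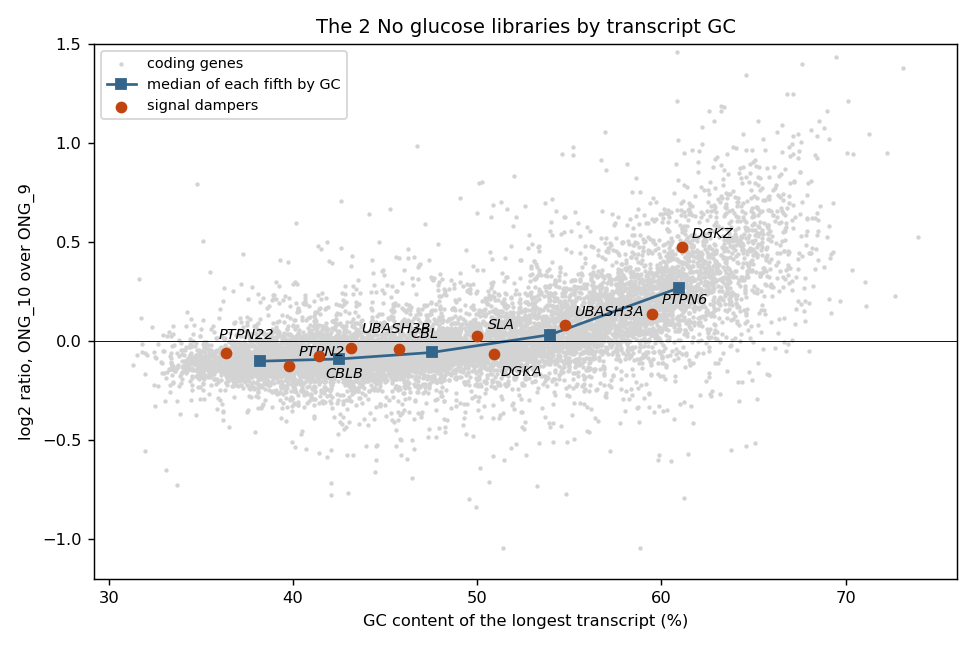
log2 ratio of the 2 No glucose libraries, ONG_10 over ONG_9 (y axis), against the GC content of the longest transcript in % (x axis), for coding genes with at least 50 normalized counts (grey, 1 gene outside the plotted range), the median of each of 5 equal bins by GC (blue) and the signal dampers (red). The medians run from -0.10 to 0.27, and DGKZ lies above the others at 0.48.

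Of the 3 tyrosine phosphatases, PTPN6 and PTPN22 were higher and PTPN2 was lower. PTPN6, or SHP-1, which binds inhibitory receptors through its SH2 domains (ENSG00000111679, chr12:6946468-6961316, plus strand), had 3181 and 3504 normalized counts in No glucose and 2614 and 2544 in Ctrl, a log2 fold change of 0.37 ± 0.06. PTPN22, a partner of the kinase CSK that dephosphorylates LCK and ZAP70 (ENSG00000134242, chr1:113813811-113871759, minus strand), had 3216 and 3081 in No glucose and 2725 and 2768 in Ctrl, a log2 fold change of 0.20 ± 0.06. In both genes every No glucose library was above every Ctrl library, by 14.6% on average for PTPN22 and 29.6% for PTPN6. PTPN2, a phosphatase of JAK1, JAK3, STAT proteins and LCK (ENSG00000175354, chr18:12785478-12929643, minus strand), had 6303 and 5786 in No glucose and 7077 and 7162 in Ctrl, a log2 fold change of -0.24 ± 0.06. That value is close to the median of -0.20 of coding genes, and 47.1% of them had a lower log2 fold change than PTPN2. With scaling to library totals PTPN2 was at -0.03 and not called, so its call depends on the scaling as well as on which libraries are kept.

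SLA, an adaptor that links the receptor's zeta chain to CBL (ENSG00000155926, chr8:133036724-133103054, minus strand), had 4939.8 and 5026 normalized counts in No glucose and 3659 and 3585 in Ctrl. Every No glucose library was above every Ctrl library, and the log2 fold change of 0.46 ± 0.05 was the second highest of the 10. Its relative SLA2 had 3653 and 3672 in No glucose and 4246 and 4266 in Ctrl, and fell by 0.22 on the log2 scale (SE 0.05, adjusted p = 0.0086 in limma). With scaling to library totals it was at -0.01 and not called. Without CTRL_7 and without CTRL_8 it was as low (-0.22 and -0.21) but not called. Per exon length SLA held 32.8% and 33.1% of the pair's level in No glucose and 23.7% and 23.3% in Ctrl. SLA2 remained the larger part in each library.

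**Figure D4:**
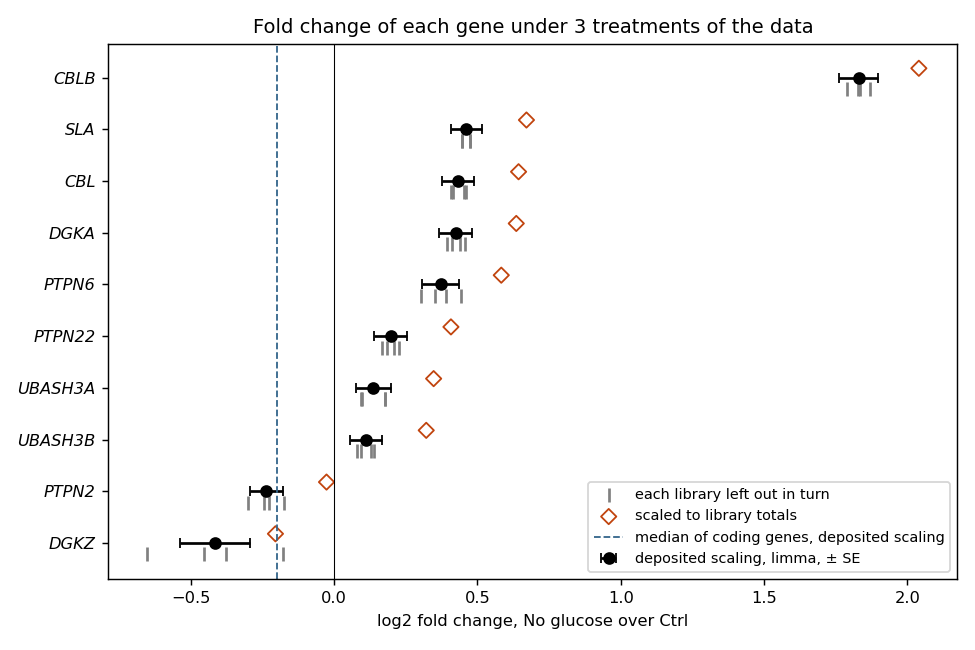
log2 fold change of No glucose over Ctrl (x axis) for each signal damper (y axis): black points with SE from limma on the deposited scaling, grey ticks with each library left out in turn, red diamonds with scaling to library totals. The dashed line marks the median of coding genes, -0.20. CBLB stays between 1.79 and 2.04 under these treatments, and the ticks of DGKZ range from -0.65 to -0.18.

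Across all 14 settings tried, CBL, CBLB, DGKA and SLA were called in 14, PTPN6 in 13, PTPN22 in 12, PTPN2 in 11, DGKZ in 10, UBASH3A in 2 and UBASH3B in 1. No damper changed sign in any of them. Ordered by level per exon length in No glucose, UBASH3A stood first at 103 ± 3.63 (SD, n = 2), ahead of PTPN22 (91.6 ± 3.29), PTPN2 (90.8 ± 6.01), PTPN6 (87.3 ± 5.46) and SLA (85.4 ± 0.554). The ranges of the 2 libraries overlapped between PTPN22 and PTPN2, PTPN2 and PTPN6, and PTPN6 and SLA, so their order is within the spread. Below them came CBL (58.0 ± 1.43), UBASH3B (53.9 ± 1.179), DGKA (49.6 ± 1.87), CBLB (23.2 ± 1.01) and DGKZ (15.7 ± 3.53), with no overlap between neighbours. In Ctrl the order was PTPN2 (90.9 ± 1.99), UBASH3A (80.0 ± 2.01), PTPN22 (67.9 ± 1.65), PTPN6 (57.3 ± 0.318), SLA (52.8 ± 0.0470), UBASH3B (42.4 ± 0.672), CBL (36.5 ± 1.42), DGKA (31.4 ± 0.857), DGKZ (17.5 ± 0.427) and CBLB (5.54 ± 0.0936), with no overlap between neighbours. CBLB was thus the lowest in Ctrl and above DGKZ in both No glucose libraries by this measure. These orders between genes rest on annotated exon lengths, which may differ from the lengths of the transcripts present. In TPM PTPN2 had 95.0 and 86.6 in No glucose and 89.5 and 92.3 in Ctrl, which overlap. DGKZ overlapped as well, with 13.2 and 18.1 in No glucose and 17.8 and 17.2 in Ctrl.

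The dampers ranged widely in exon length. CBL, CBLB, UBASH3B, DGKA, DGKZ and PTPN2 fall in the longest of 5 equal bins of coding genes by annotated exon length (at least 8461 bases), SLA is in the next, PTPN6 in the middle one, UBASH3A and PTPN22 in the one after, and none is in the shortest. In the longest bin 660 of 2131 genes were called higher and 710 lower, with a median log2 fold change of -0.01. In the shortest bin 244 of 2132 were called higher and 1253 lower, with a median of -0.41. The part of transcript length in the differences was not tested. Genes on the other strand overlap some dampers, and the counting strand is not given in the sources used here, so reads of such pairs could be mixed. MCAM, which overlaps CBL, had 992 and 1006 normalized counts in No glucose and 1307 and 1312 in Ctrl, and PYM1, which overlaps DGKA, had 902 and 912 in No glucose and 1033 and 1042 in Ctrl. Both were lower in No glucose, while CBL and DGKA were higher. ENSG00000273973, on the same strand as DGKA, had 36.4 and 25.3 in No glucose and 32.3 and 46.8 in Ctrl, which overlap. Some genes on the opposite strand differed the same way as their damper, at much lower levels. AP4B1-AS1, opposite PTPN22, had 84.9 and 82.8 in No glucose and 59.8 and 50.8 in Ctrl, and ENSG00000231128, also opposite PTPN22, had 66.7 and 36.5 in No glucose and 28.2 and 18.7 in Ctrl. ENSG00000285909, opposite UBASH3B, had 30.3 and 33.7 in No glucose and 11.7 and 5.35 in Ctrl. The pseudogene EIF4A2P1, opposite PTPN2, had 9.10 and 9.82 in No glucose and 39.5 and 38.8 in Ctrl. TG, in which SLA lies, had 13.6 and 15.4 in No glucose and 6.87 and 5.35 in Ctrl, higher in No glucose as SLA was. The pseudogene DGKZP1 had 9.10 and 5.61 in No glucose and 18.9 and 20.1 in Ctrl, lower as DGKZ was. Of the pseudogenes of PTPN2, PTPN2P1 was lower in No glucose and PTPN2P2 higher, with at most 9.36 normalized counts.

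Of 10 paralogs from the CBL, DGK and SLA families, 6 were tested, 5 of them DGK genes. Of these 6, 4 fell (DGKG, DGKH, SLA2 and DGKE) and none rose, and their median was -0.21 on the log2 scale. This list of paralogs holds no PTPN gene, and those are in the next list. Among coding genes 47.2% were called lower and 18.9% higher, with a median of -0.20, and nothing particular to the paralogs is read from their counts. The other 4, CBLC, DGKB, DGKI and DGKK, had at most 1.52 normalized counts. DGKG, a further calcium-responsive isoform of the DGKA type, had 1113 and 1047 normalized counts in No glucose and 2155 and 2267 in Ctrl. Both No glucose libraries were far below either Ctrl library, and the log2 fold change was -1.03 ± 0.07 (limma with Benjamini-Hochberg adjustment, adjusted p = 5.8e-07). DGKH fell by 0.35 (SE 0.06) and DGKE by 0.20 (SE 0.06), while DGKD (-0.17 ± 0.07) and DGKQ (0.17 ± 0.17) were not called. With scaling to library totals DGKG alone remained called lower, and DGKE and DGKD turned to 0.012 and 0.045. DGKQ was at -0.14 without ONG_10 and, then called, at 0.49 without ONG_9. The count of called paralogs was 1 without CTRL_7 and 2 without CTRL_8. Per exon length DGKA held 32.1% and 28.95% of the DGK family's level in No glucose and 20.4% and 21.2% in Ctrl, and DGKG 8.41% and 7.46% in No glucose and 14.3% and 15.3% in Ctrl.

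Among the other non-receptor tyrosine phosphatases, 13 of 14 were tested, 4 fell and 2 rose, and the median log2 fold change was -0.01. For this list and those below, the shares to set beside the counts are 18.9% higher and 47.2% lower among coding genes. Over all genes tested they are 14.4% higher and 20.7% lower. Nothing particular to a list is read from its counts. PTPN11, or SHP-2, a relative of PTPN6 that promotes RAS signalling, had 10444 and 9637 normalized counts in No glucose and 16279.8 and 16292 in Ctrl. It was lower in both No glucose libraries, with a log2 fold change of -0.70 ± 0.05 (limma with Benjamini-Hochberg adjustment, adjusted p = 1.7e-06). Per exon length PTPN11 held 21.7% and 20.4% of the family's level in No glucose and 29.8% and 30.1% in Ctrl, whereas PTPN6 held 9.28% and 10.4% in No glucose and 6.71% and 6.60% in Ctrl. PTPN3 fell by 0.72, PTPN18 by 0.37 and PTPN1, the closest relative of PTPN2, by 0.20 on the log2 scale. PTPN23 rose by 0.79 ± 0.10 and PTPN14 by 0.74 ± 0.16. Scaled to library totals, 5 were called higher and 2 lower, and PTPN1 was at 0.014. The count of called genes was 3 without CTRL_7, where PTPN1, PTPN14 and PTPN18 were not called, and 4 without CTRL_8, where PTPN1 and PTPN18 were not.

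A wider list of 43 further genes, assembled as dampers of receptor signalling, divided. Of 42 tested, 16 rose and 11 fell, with a median log2 fold change of 0.17. SH2D2A, an adaptor that binds LCK, had 945 and 979 normalized counts in No glucose and 331 and 329 in Ctrl, and its log2 fold change of 1.54 ± 0.08 (limma with Benjamini-Hochberg adjustment, adjusted p = 1.4e-07) was the highest of the list. CD200R1, an inhibitory receptor (1.42 ± 0.16), RASAL3, a RAS GTPase-activating protein of lymphocytes (1.09 ± 0.09), and DOK2, an adaptor that recruits such proteins (0.88 ± 0.13), also rose. RASA3, another RAS GTPase-activating protein (-0.84 ± 0.07), the ubiquitin ligase STUB1 (-0.82 ± 0.18), MAP4K1, a kinase that restrains receptor signalling (-0.62 ± 0.06), and CSK, the kinase that inactivates LCK (-0.56 ± 0.10), fell. CSK had 2264 and 2914 normalized counts in No glucose and 3901 and 3657 in Ctrl. STUB1 had 92.5 and 140 in No glucose and 202 and 201 in Ctrl. ONG_10 was 1.52 times ONG_9 for STUB1 (65.0% GC), 1.29 times for CSK (63.6%) and 1.19 times for RASAL3 (65.0%). The part of GC content in these spreads was not tested. The list also holds the phosphatase gene PTPRC (CD45), named after its values were seen and not read here as a brake. PTPRC had 48607 and 44965 normalized counts in No glucose and 30124 and 29736 in Ctrl. It was higher in each No glucose library, with a log2 fold change of 0.64 ± 0.05. STUB1 and CSK were not called without CTRL_7. The list had 14 called genes without CTRL_7 and 17 without CTRL_8, and 21 higher and 6 lower with scaling to library totals.

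Of 30 substrates and binding partners of the dampers 29 were tested, 13 rose and 4 fell, and the median log2 fold change was 0.13. GAB2, a docking protein phosphorylated after receptor engagement, had 1612 and 1599.6 normalized counts in No glucose and 406 and 399 in Ctrl, a log2 fold change of 1.99 ± 0.07 (limma with Benjamini-Hochberg adjustment, adjusted p = 1.7e-08). The costimulatory receptor CD28 had 1199 and 1264 in No glucose and 696 and 635 in Ctrl (0.89 ± 0.08). The receptor chain CD3E (0.54 ± 0.05) and the RAS exchange factor SOS2 (0.48 ± 0.06) also rose, and SH3BP2 (-0.73 ± 0.07), GRB2 (-0.34 ± 0.05), VAV1 (-0.26 ± 0.06) and CRKL (-0.25 ± 0.05) fell. SYK, the kinase related to ZAP70, had 0 reads in every library, which allows up to 3 reads in each. GRB2, VAV1 and CRKL were not called without CTRL_7 or without CTRL_8, and VAV1 and CRKL not with scaling to library totals. Without CTRL_7 the list had 7 called genes and without CTRL_8 it had 8, and scaling to library totals gave 18 higher and 2 lower.

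On the diacylglycerol and phosphatidic acid side, the lipids that DGK enzymes consume and make, 24 of 26 genes were tested, 3 rose and 7 fell, with a median log2 fold change of -0.08. PLCG1, the phospholipase that makes diacylglycerol below the receptor, had 15744 and 16487 normalized counts in No glucose and 11945 and 11311 in Ctrl (0.47 ± 0.05, limma with Benjamini-Hochberg adjustment, adjusted p = 2.7e-05). The phosphatidic acid phosphatase LPIN1 (0.55 ± 0.06) and PRKCQ, protein kinase C theta (0.23 ± 0.06), also rose. RASGRP2, an exchange factor with a diacylglycerol-type domain, had 464 and 643 in No glucose and 1192 and 1096 in Ctrl, and fell by 1.06 on the log2 scale (SE 0.13). For RASGRP2, at 63.9% GC, ONG_10 was 1.39 times ONG_9. PRKCD (-0.71 ± 0.15), PRKCH (-0.57 ± 0.05) and MTOR (-0.38 ± 0.05) fell as well. PRKCQ was not called without CTRL_7 or CTRL_8, nor PRKCD without CTRL_8. The list had 6 called genes without CTRL_7 and 6 without CTRL_8, and 6 higher and 5 lower with scaling to library totals.

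Among 17 genes of the JAK-STAT pathway on which PTPN2 and PTPN6 act, 5 rose and 3 fell, with a median log2 fold change of 0.07. STAT5A had 3257 and 3540.1 normalized counts in No glucose and 4768 and 4782 in Ctrl (-0.49 ± 0.06, limma with Benjamini-Hochberg adjustment, adjusted p = 5.7e-05). TYK2 (-0.41 ± 0.13) also fell, while IFNGR1 (0.45 ± 0.07), IFNAR1 (0.32 ± 0.06), STAT3 (0.29 ± 0.05) and JAK1 (0.23 ± 0.05) rose. For TYK2, at 61.3% GC, ONG_10 was 1.41 times ONG_9. STAT4, below the level for named genes and picked after its values were seen, had 53.1 and 43.5 normalized counts in No glucose and 6.87 and 5.35 in Ctrl, and rose as well. STAT3, JAK1 and IFNAR1 were not called without CTRL_7 or without CTRL_8, and TYK2 not without CTRL_7, with DESeq2 on the recovered reads or with scaling to library totals. The list had 3 called genes without CTRL_7 and 4 without CTRL_8, and 10 higher and 1 lower with scaling to library totals. In bulk RNA, fewer cells with a transcript and less of it per cell cannot be told apart in any of these values.

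**Figure D5:**
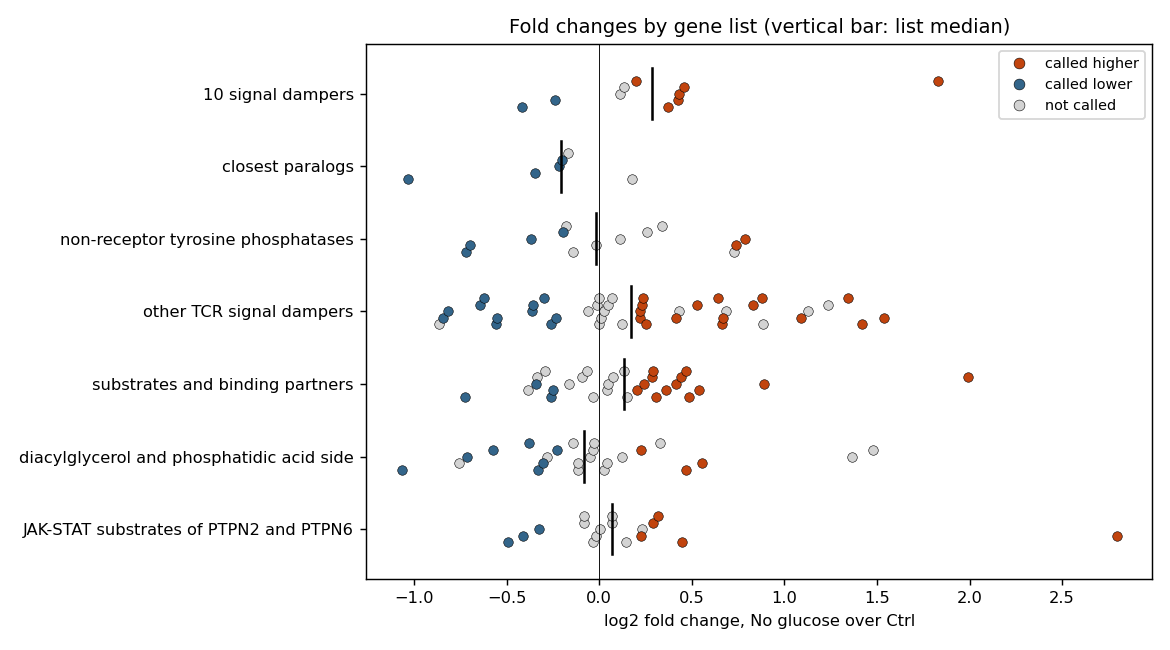
log2 fold change of No glucose over Ctrl (x axis) of every tested gene in the 10 signal dampers and 6 lists of related genes (y axis, spread vertically for legibility), with called genes in red (higher) or blue (lower) and the list median as a bar. The list named closest paralogs holds CBL, DGK and SLA relatives and no PTPN gene. The dampers' median is 0.28, and the median of -0.21 of these paralogs lies close to the -0.20 of coding genes, of which 18.9% were called higher.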

How the data were processed

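Total RNA libraries were made with the TruSeq Stranded kit and read as 75-base single ends, per the labels' protocols. Per the submitters' processing notes, the tools were STAR 2.6.0c, RSEM 1.3.0 and DESeq2, with hg38. The annotation release and the counting strand are not given in the sources used here. The signal values are the authors' normalized counts: whole reads over 1 size factor for each library. Whole reads were recovered from the smallest value above 0 of each library, and 100% of values came out within 0.01 of a whole number. The deposited log2 fold changes and SE, the deposited score (a test statistic) and the deposited p-values belong to the authors' own comparison, and only their calls were used. The ONG columns were read as No glucose, since the remaining columns are the CTRL ones.

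Genes averaging at least 1 normalized count (27486) entered limma 3.58.1 (trend, R 4.3.3) with a pseudocount of 1. Tests were two-sided, p-values were adjusted by Benjamini-Hochberg, and the threshold was 0.05. This scale understates changes of low genes. Separate cultures are not stated for the replicates, so the p-values reflect the spread among these 4 libraries alone, and that spread may be technical. Of 60609 identifiers, 58457 are in GENCODE 29, the source of positions, exon lengths and GC content. Alternatives used edgeR 4.0.16, DESeq2 and limma-voom on recovered reads, other pseudocounts, filters and scalings, and left out each library in turn. edgeR called 10256 genes. The fit was also run on simulated counts, with 200 genes changed by 4 known folds and the same variability set for every gene. That setting is simpler than these data, so it gives no error rate for them. The 10 genes and all lists were chosen with earlier results of these data known. Named were all 10 dampers, all tested paralogs and, from each other list, up to 4 called genes per direction with a mean of at least 50 normalized counts, besides PRKAA2, PRKAA1 and those marked in the text. Some genes that this rule names are not reported here.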

Additional observations from a re-analysis of the deposited data

How the results depend on the processing

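No paired analysis was possible because the table's columns do not carry the replicate numbers of the labels. Over 14 settings the log2 fold changes of the 10 dampers kept their sign, and the count of called dampers was 8 in all but DESeq2 (7) and the settings that left out a library, where it ran from 4 to 9. Leaving out each library in turn gave 5345 to 10559 called genes in all, 1 to 5 paralogs, 3 to 8 other non-receptor phosphatases, 14 to 30 other dampers, 7 to 21 substrates and partners, 6 to 12 genes of the diacylglycerol side and 3 to 9 JAK-STAT genes. Each of these counts was lowest without CTRL_7, a tie with CTRL_8 for the diacylglycerol side. An arm with 1 library is assumed there to vary like the other group. Scaling to library totals left 1 called paralog and gave 6106 genes higher and 3818 lower, against 3948 and 5695 with the deposited scaling. It turned DGKE to 0.012, DGKD to 0.045, PTPN1 to 0.014 and PRKAA1 to 0.13 (-0.08 with the deposited scaling). Leaving out a library put DGKQ between -0.14 (without ONG_10) and 0.49 (without ONG_9). The causes were not tested. The replicate block listed among the alternatives was not run. The precision rests on 2 libraries a group, and of the 4, CTRL_7 has the most reads assigned to genes.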
